A study of Cavia porcellus with 13 samples.

Results

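Melanocytes, the pigment cells of skin and hair, were followed through 10 genes: TYR, TYRP1, DCT, PMEL, MLANA, GPR143 and OCA2 of the melanosome, the transcription factor MITF, the receptor MC1R and the channel TRPM1. These genes were chosen by symbol, with their levels in these libraries already known, and all 10 were found among the 26855 genes of the deposited table (GPR143 as ENSCPOG00000007501, TYR as ENSCPOG00000010608). Of them, 8 reached 1 TPM in at least 2 libraries; OCA2 and MC1R did not. TPM is a gene's share of a library's transcripts after correction for gene length, so levels of different genes can be set side by side on it.

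Guinea pig skin from a study of repeated tick feeding gave 13 RNA-seq libraries, and the labels place all of them 4 days after tick attachment. Tick-bitten skin came from 4 groups: 3 libraries from saliva immune animals, 3 from animals at a first exposure, 2 labelled with 3 tick bites and 2 labelled with 2. The reference was 3 naive libraries labelled as without a bite. The titles of the saliva immune and first exposure libraries and of naive replicates 1 and 2 begin with CK1, and those of the 3 bites and 2 bites libraries and naive replicate 3 begin with EF19-5. This prefix was taken as the experiment. The labels name no strain, coat colour, age or biopsy position, and do not say whether the libraries of a group are separate animals, so a spread between them may be technical in part.

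Melanin is made inside melanosomes, where tyrosinase starts the pathway from tyrosine and related enzymes shape the brown to black eumelanin. A fibrous scaffold inside the organelle holds the pigment, membrane proteins set its ion balance and pH, and MITF switches on most of these genes. In haired skin the pigment-making melanocytes sit mainly in the bulbs of growing hair follicles, and finished melanosomes are passed to keratinocytes.

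TYR, TYRP1, PMEL, MLANA, GPR143 and TRPM1 were measured in 12 of the 13 libraries and were at or near 0 in 1, the library labelled 3 bites replicate 1. DCT and MITF were present in all 13, OCA2 was under 1 TPM throughout, and MC1R was listed at 0 in every library. The other library of that group and 2 bites replicate 2 had the highest summed levels of the 7 melanosome genes. Libraries with and without these transcripts thus carried the same group label. In summed TPM, the melanosome genes reached 94.8, 75.1 and 182.8 in saliva immune skin, 55.0, 60.1 and 95.4 in first exposure skin, 6.25 and 190.2 in 3 bites skin, 100.7 and 190.2 in 2 bites skin, and 97.7, 87.2 and 67.8 in naive skin. The highest sum was 30.4 times the lowest over all libraries and 3.46 times the lowest once 3 bites replicate 1 was left out. Of the 6.25 TPM left in that library, DCT made up 4.39 TPM and PMEL the rest. In bulk skin, fewer melanocytes and less RNA per melanocyte cannot be told apart.

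**Figure D1:**
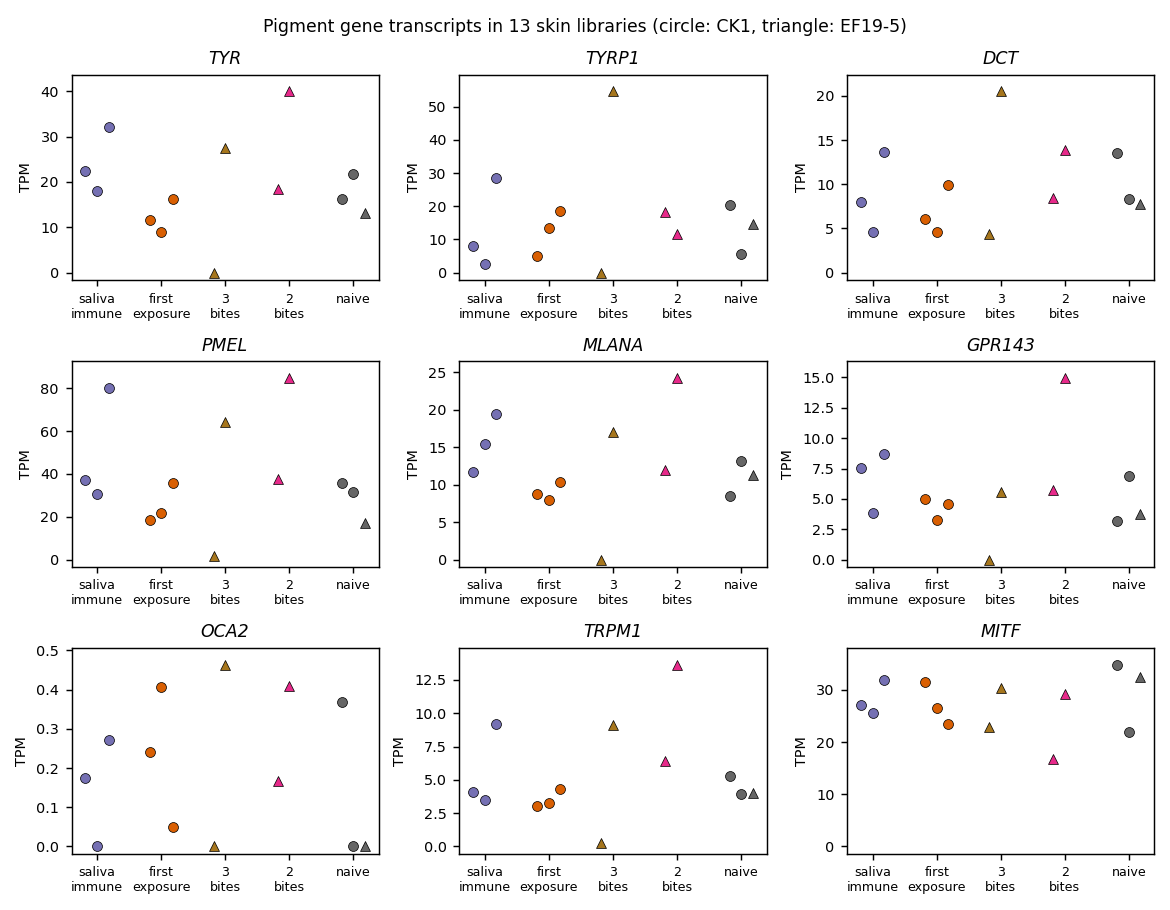
TPM (y axis, one scale per panel) of 9 pigment genes in each library, by group (x axis). Circles are CK1 libraries and triangles EF19-5 libraries, and points within a group are its replicates. One 3 bites library sits at or near 0 for TYR, TYRP1, PMEL, MLANA, GPR143 and TRPM1, while its MITF lies among the others at 22.9 TPM and its DCT at 4.39 TPM.

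Among the enzymes, TYR, tyrosinase, was measured at 22.4, 18.0 and 32.1 TPM in saliva immune skin, 11.6, 8.93 and 16.3 TPM in first exposure skin, 0 and 27.6 TPM in 3 bites skin, 18.5 and 40.1 TPM in 2 bites skin, and 16.1, 21.8 and 13.3 TPM in naive skin. The 3 saliva immune libraries all lay above the 3 first exposure libraries, as they did for 5.41% of the 14979 genes tested, and both sets overlapped the naive range. TYR was listed at 0 in 3 bites replicate 1, against a lowest value of 8.93 TPM elsewhere. TYRP1, a tyrosinase-related enzyme that stabilises tyrosinase and acts in eumelanin synthesis, had 7.92, 2.71 and 28.6 TPM in saliva immune skin, 5.12, 13.4 and 18.7 TPM in first exposure skin, 0 and 54.7 TPM in 3 bites skin, 18.4 and 11.7 TPM in 2 bites skin, and 20.3, 5.60 and 14.6 TPM in naive skin. The 2 libraries of the 3 bites group held both its lowest and its highest value, and the other groups overlapped one another. DCT, dopachrome tautomerase, had 7.96, 4.63 and 13.7 TPM in saliva immune skin, 6.03, 4.63 and 9.89 TPM in first exposure skin, 4.39 and 20.6 TPM in 3 bites skin, 8.40 and 13.9 TPM in 2 bites skin, and 13.6, 8.29 and 7.80 TPM in naive skin. DCT was lowest in 3 bites replicate 1, but only just: its 4.39 TPM there was 52.5% of the median of the other 12 libraries, and saliva immune replicate 2 and first exposure replicate 2 both stood at 4.63 TPM.

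PMEL, which forms the amyloid fibrils on which melanin is laid down, was the most abundant of the melanosome genes in most libraries. It had 37.1, 30.4 and 80.1 TPM in saliva immune skin, 18.2, 21.5 and 35.5 TPM in first exposure skin, 1.86 and 64.3 TPM in 3 bites skin, 37.6 and 84.9 TPM in 2 bites skin, and 35.6, 31.5 and 17.1 TPM in naive skin. The 1.86 TPM of 3 bites replicate 1 was 5.24% of the median of the other libraries, so a little PMEL was still listed where TYR was at 0. MLANA, a small membrane protein of early melanosomes that takes part in PMEL maturation, had 11.7, 15.5 and 19.4 TPM in saliva immune skin, 8.80, 7.98 and 10.4 TPM in first exposure skin, 0 and 17.0 TPM in 3 bites skin, 11.9 and 24.2 TPM in 2 bites skin, and 8.50, 13.1 and 11.3 TPM in naive skin. As for TYR, the saliva immune libraries lay above the first exposure ones, and the naive libraries fell across both. TYR and MLANA were 2 of the 8 measured pigment genes in that position, and 0 of the 8 had all saliva immune libraries below, a position held by 1.35% of the genes tested.

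GPR143, the ocular albinism receptor of the melanosome membrane, which controls melanosome size and number, had 7.50, 3.86 and 8.72 TPM in saliva immune skin, 5.03, 3.24 and 4.55 TPM in first exposure skin, 0 and 5.53 TPM in 3 bites skin, 5.76 and 15.0 TPM in 2 bites skin, and 3.18, 6.86 and 3.78 TPM in naive skin. The order over libraries ran from 3 bites replicate 1 at 0 and naive replicate 1 at 3.18 TPM up to saliva immune replicate 3 at 8.72 TPM and 2 bites replicate 2 at 15.0 TPM. Group means were 6.69 ± 2.53 TPM in saliva immune skin, 4.27 ± 0.925 TPM in first exposure skin and 4.61 ± 1.98 TPM in naive skin (SD, n = 3 each), means that lie closer together than the SD of saliva immune skin. Between the 2 libraries of the 3 bites group, and between the 2 of the 2 bites group, GPR143 differed more than between any of those 3 means. OCA2, a chloride channel that raises melanosome pH, stayed under 1 TPM everywhere. It was listed at 0 in saliva immune replicate 2, 3 bites replicate 1 and naive replicates 2 and 3, and reached 0.464 TPM at most, in 3 bites replicate 2. At that level its absence from 3 bites replicate 1 cannot be set apart from its absence in the other 3.

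TRPM1, a cation channel of melanocytes whose gene is a known MITF target, had 4.09, 3.49 and 9.18 TPM in saliva immune skin, 3.04, 3.24 and 4.32 TPM in first exposure skin, 0.240 and 9.09 TPM in 3 bites skin, 6.42 and 13.6 TPM in 2 bites skin, and 5.32, 3.95 and 3.99 TPM in naive skin. It was highest in 2 bites replicate 2, as TYR, PMEL, MLANA and GPR143 were. MITF, the regulator of the lineage, behaved otherwise: 27.1, 25.5 and 32.0 TPM in saliva immune skin, 31.5, 26.5 and 23.5 TPM in first exposure skin, 22.9 and 30.3 TPM in 3 bites skin, 16.8 and 29.3 TPM in 2 bites skin, and 34.8, 21.9 and 32.4 TPM in naive skin. Its lowest library was 2 bites replicate 1, and 3 bites replicate 1 had 81.4% of the median of the other libraries. MITF is also expressed by mast cells, osteoclasts and other cells in isoforms that gene-level values do not separate. MC1R, the melanocortin receptor through which melanocytes are stimulated, was listed at 0 in all 13 libraries.

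Beyond the 10 genes, a list of 34 symbols of melanosome transporters, transport and biogenesis was looked up, of which 29 were in the table, and a list of 29 lineage and signalling symbols, of which 26 were. Among the transporters, SLC24A5, a potassium-dependent sodium and calcium exchanger of melanosomes and a major determinant of skin colour, was listed at 0 in 3 bites replicate 1, against 6.28 TPM or more elsewhere. SLC45A2, a transporter that keeps melanosomes from acidifying, had 0.0698 TPM there, against 11.4 TPM or more elsewhere. Of the 29 genes, 5 were lowest in 3 bites replicate 1 (SLC24A5, SLC45A2, MLPH, MFSD12 and SNAPIN), and 11 were lowest in naive replicate 2. MLPH, the melanophilin that ties melanosomes to their motor, had 1.81 TPM in 3 bites replicate 1, against 3.47 TPM or more elsewhere. MFSD12 and SNAPIN lay just under their next library. AP3B1, ATP7A and HPS3, which act in protein sorting to lysosome-related organelles or in copper transport in many cell types, were highest in 3 bites replicate 1: HPS3 had 7.27 TPM there, against 3.81 to 6.56 TPM elsewhere. The 2 most abundant genes of the list lay within the range of the other libraries: CD63 had 282.2 TPM in 3 bites replicate 1, against 206.0 to 364.7 TPM elsewhere, and GPNMB, which macrophages also express, had 122.3 TPM, against 54.5 to 143.6 TPM elsewhere.

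In the lineage list, 4 of the 25 genes with any value were lowest in 3 bites replicate 1 (SOX10, PAX3, KIT and TBX2), while 7 were lowest in naive replicate 2 and 4 in saliva immune replicate 2. TFAP2A and ERBB3, the most abundant genes of the list, had 173.7 and 103.5 TPM in 3 bites replicate 1, each above 9 of the other 12 libraries. SOX10, which marks neural crest derivatives and acts with MITF, had 1.05 TPM there, against 3.73 to 11.2 TPM elsewhere. PAX3, another neural crest factor upstream of MITF, had 0.192 TPM, against 1.36 to 4.08 TPM elsewhere. KIT, the receptor for stem cell factor on melanocytes and mast cells, had 3.46 TPM, against 5.74 to 14.4 TPM elsewhere. The ligand genes differed in their place: KITLG, which encodes stem cell factor, had 26.7 TPM in 3 bites replicate 1, above 10 of the other 12 libraries. HGF, at 1.43 TPM, was above 11 of them. EDN1, at 12.4 TPM, and EDN3, at 0.599 TPM, were each above 4, and POMC, at 2.62 TPM, was above 1. ASIP, the agouti protein that antagonises MC1R, was listed at 0 in 6 libraries, had 2.69 TPM in 3 bites replicate 1 and was highest at 8.36 TPM in saliva immune replicate 3, a library with 182.8 TPM of melanosome transcripts. The genes outside the 10 were singled out after their values were seen, apart from TFAP2A and ERBB3 here and CD63 and GPNMB in the transport list.

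Tissue makeup varied between the libraries and was read from fixed marker lists. The 23 measured hair follicle and hair shaft genes summed to 21767 TPM in 3 bites replicate 1, the third highest of the libraries, whose sums ran from 5946 TPM in saliva immune replicate 2 to 31888 TPM in 2 bites replicate 2. Basal keratinocyte genes summed to 13255 TPM there (6543 to 18281 TPM over all libraries) and Schwann cell genes, a list that shares SOX10 and ERBB3 with melanocytes, to 465.3 TPM (213.1 to 561.3 TPM). Mast cell genes summed to 55.4 TPM there (23.9 to 78.7 TPM). Low pigment transcripts in that library stood beside hair, keratinocyte, nerve sheath and mast cell transcripts within the range of the others. Skeletal muscle genes, which mark deeper tissue in a biopsy, took 1.54% of 3 bites replicate 1 and between 0.647% and 17.0% of the libraries, the most in naive replicate 2; their part in the pigment levels was not tested.

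**Figure D2:**
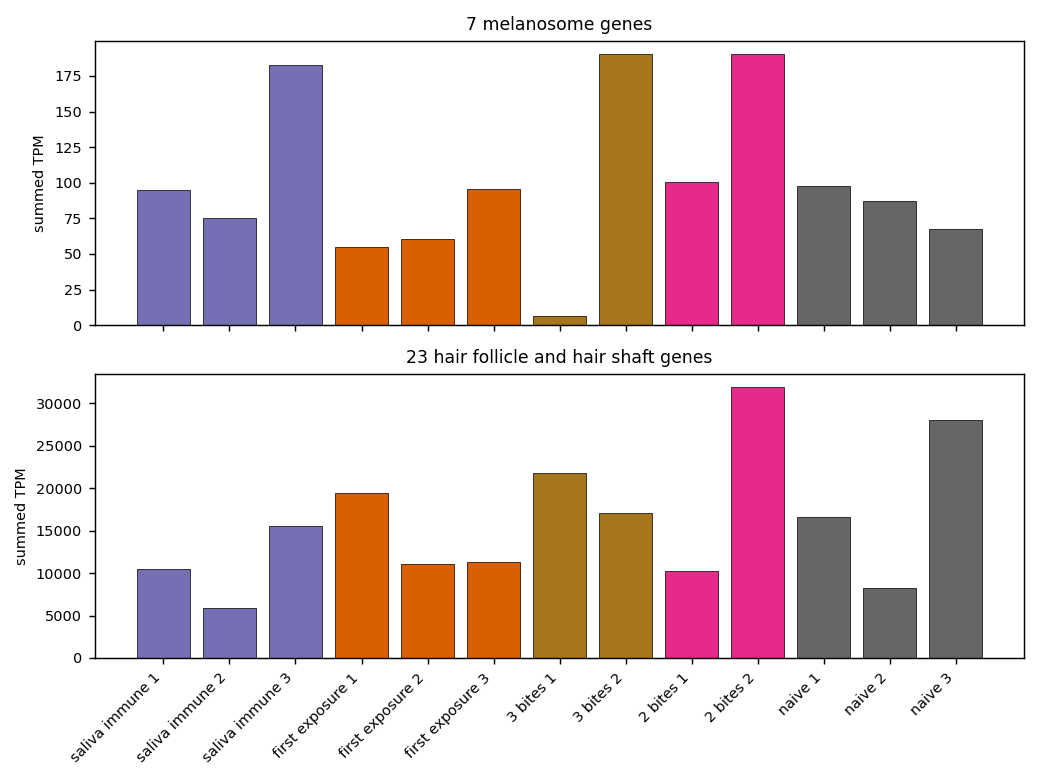
Summed TPM (y axes, from 0) of the 7 melanosome genes (top) and of 23 hair follicle and hair shaft genes (bottom) in each library (x axis), coloured by group. The library 3 bites replicate 1 has 6.25 TPM of melanosome transcripts beside 21767 TPM of hair transcripts, while 3 bites replicate 2 has 190.2 TPM beside 17021 TPM.

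The missing transcripts were few when the whole table was searched. Of 12420 genes with at least 1 TPM in each of the other 12 libraries, 9 were listed at 0 in 3 bites replicate 1, and 7 of these carry a symbol: TYR, TYRP1, MLANA, GPR143, SLC24A5, GABRD and CBLN1. The same count was 0 to 6 in each other library, with 6 in naive replicate 2 and 4 in 3 bites replicate 2. When genes under 25% of the lowest other library were counted, 3 bites replicate 1 had 15, adding PMEL, TRPM1, SLC45A2, PAX3 and NMNAT2 among those with a symbol, while naive replicate 2 had 22 and the remaining libraries 0 to 7. This search was chosen after the values were seen. The library was not poor in genes as such, with 13999 genes at 1 TPM or more, in a range of 13270 to 14391 over all libraries.

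Within the 12 libraries in which TYR was measured, several of the genes kept similar proportions to TYR. SLC24A5 varied least against TYR: its TPM was 0.659 times that of TYR at the median and between 0.531 times in naive replicate 3 and 0.815 times in first exposure replicate 1, so that the highest ratio was 1.54 times the lowest. MLANA was 0.628 times TYR at the median (0.524 to 0.894). PMEL was 2.07 times TYR at the median (1.29 to 2.50). In these genes TYR itself varied over a wider range than the proportion did, from 8.93 to 40.1 TPM. GPR143 was 0.298 times TYR at the median, from 0.197 times in naive replicate 1 and 0.201 times in 3 bites replicate 2 to 0.434 times in first exposure replicate 1, a 2.20-fold range.

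TYRP1 broke from this pattern. Its ratio to TYR was lowest in saliva immune replicate 2 at 0.151 and highest in 3 bites replicate 2 at 1.99, a 13.2-fold range around a median of 0.944. Libraries of 1 group differed as much as groups did: saliva immune skin had ratios of 0.354, 0.151 and 0.892, first exposure skin 0.442, 1.51 and 1.14, 2 bites skin 0.995 and 0.291, and naive skin ran between 0.257 and 1.26. DCT also ranged more widely than MLANA, PMEL and GPR143, from 0.258 times TYR in saliva immune replicate 2 to 0.841 times in naive replicate 1, a 3.27-fold range. Low TYRP1 ratios went with low DCT ratios: saliva immune replicate 2, naive replicate 2, 2 bites replicate 2 and saliva immune replicate 1 had the 4 lowest ratios of both genes, which share TYR as their denominator. These libraries come from both experiments and from bitten and naive skin alike.

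**Figure D3:**
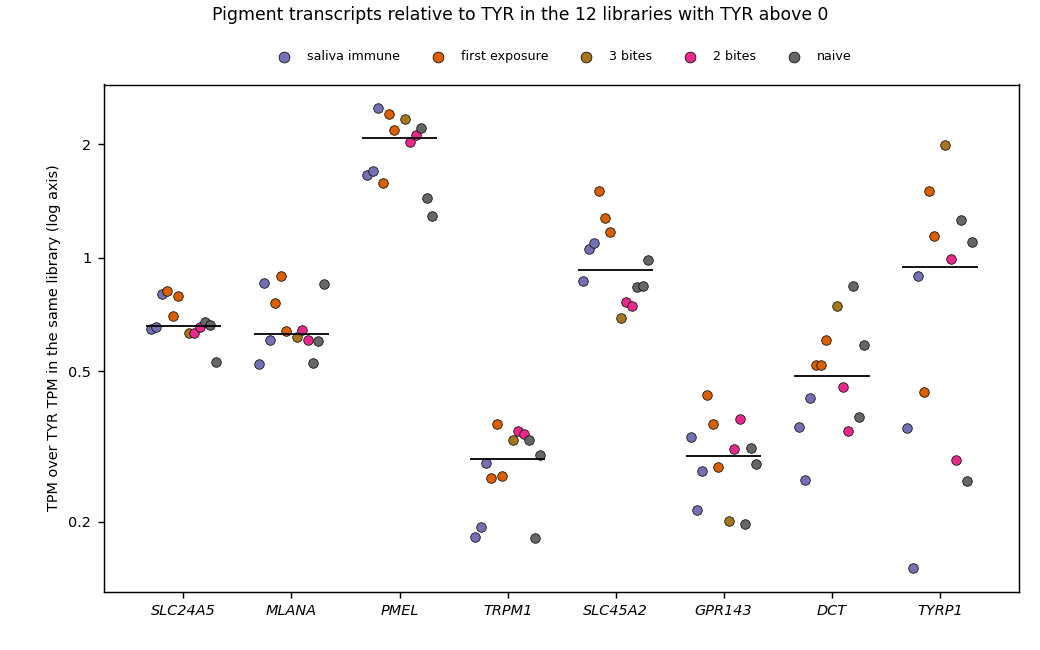
TPM of 8 pigment genes divided by the TPM of TYR in the same library (y axis, log scale), for the 12 libraries with TYR above 0, coloured by group, with the median of each gene as a line. SLC24A5, MLANA and PMEL lie in narrow bands, and TYRP1 spreads from 0.151 to 1.99.

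Correlations of log2(TPM + 1) over libraries describe the same split. They share libraries, and 1 library lies far from the rest, so each is given with and without it and with no p-value. TYR and MLANA had Pearson r = 0.98 over 13 libraries and 0.91 over 12, and TYR and PMEL had 0.97 and 0.92. For GPR143, r with TYR was 0.94 over 13 libraries (Spearman rho = 0.88) and 0.84 over 12. With TYRP1, GPR143 had r = 0.60 over 13 libraries and 0.04 over 12, so that the value over all libraries rested on 3 bites replicate 1. TYRP1 and DCT had r = 0.78 over 13 libraries and 0.77 over 12. MITF followed none of them closely: its r with GPR143 was 0.16 over 13 libraries and -0.06 over 12.

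The genes with a symbol whose pattern was nearest to GPR143 outside the 10 were ranked by Pearson r over the 13 libraries. In order they were CBLN1 (r = 0.96, rho = 0.85), SLC24A5 (0.95, 0.87), GABRD (0.94, 0.82), SLC45A2 (0.93, 0.85), Clu (0.89, 0.65), PMP2 (0.88, 0.50), NMNAT2 (0.88, 0.58), TMEM163 (0.83, 0.73), SOX10 (0.83, 0.55) and IGSF11 (0.80, 0.72). Only the first 4 kept r above 0.8 without 3 bites replicate 1: 0.88 for CBLN1, 0.85 for SLC24A5, 0.81 for GABRD and 0.82 for SLC45A2. Clu fell to 0.74, PMP2 to 0.79, NMNAT2 to 0.63, TMEM163 to 0.71, SOX10 to 0.48 and IGSF11 to 0.66. SOX10 then ranked 333rd and NMNAT2 65th. Without both that library and 2 bites replicate 2, the 2 farthest from the GPR143 median, r was 0.81 for CBLN1, 0.79 for SLC24A5, 0.77 for SLC45A2 and 0.76 for GABRD. CBLN1, a secreted synapse organiser of the cerebellum, had 10.1 TPM at most in the libraries other than saliva immune replicate 3 and 2 bites replicate 2, which had 17.2 and 20.0 TPM. GABRD, a subunit of extrasynaptic GABA receptors, had 4.30 to 15.8 TPM in the 12 libraries and was listed at 0 in 3 bites replicate 1. Clu, the abundant secreted chaperone clusterin, was in this list with a far smaller span, 495.2 TPM in 3 bites replicate 1, against 660.7 to 1028 TPM elsewhere. For the summed melanosome genes, the nearest were SLC24A5, NMNAT2, GABRD, SLC45A2, CBLN1, SOX10, KIT, Clu, PMP2 and MRPL54, from r = 0.97 to 0.81. Once 3 bites replicate 1 was left out, only NMNAT2, SLC24A5, KIT and GABRD stayed among the 10 nearest. PMP2 then ranked 66th, SLC45A2 106th, Clu 123rd, CBLN1 125th, SOX10 141st and MRPL54 2529th.

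**Figure D4:**
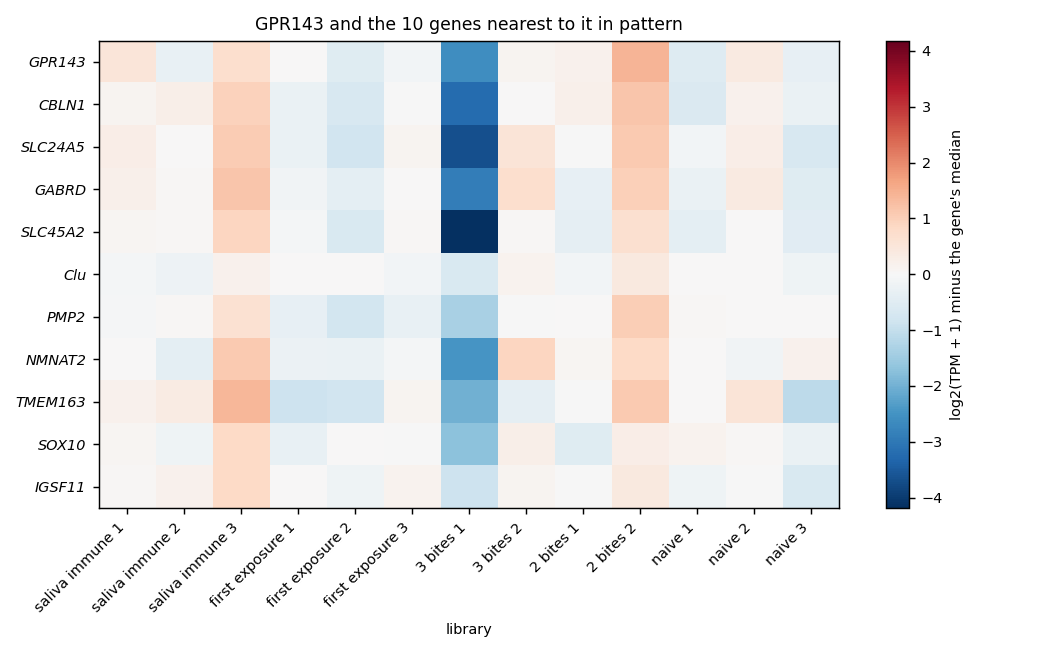
GPR143 (top row) and the 10 genes nearest to it by Pearson r, as log2(TPM + 1) minus each gene's median over the 13 libraries (colour), with libraries along the x axis. Every gene shown is lowest in 3 bites replicate 1, and all are above their median in saliva immune replicate 3 and 2 bites replicate 2.

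Against the bite itself, the pigment genes gave differences smaller than their SEs. Those SEs include the spread that 3 bites replicate 1 adds, so a difference below them does not show that bitten and naive skin are alike. In all bitten against naive skin, limma on log2(TPM + 1) with the experiment as a term gave log2 differences of 0.11 ± 0.58 for GPR143, -0.17 ± 0.81 for TYR, 0.21 ± 0.77 for PMEL and -0.15 ± 0.18 for MITF (± SE, n = 10 bitten and 3 naive). These values are a description without a test, because the genes were chosen with them known. None of the 8 measured genes was among those called at an adjusted p under 0.05, a call made for 6 of 14979 genes or 0.0401% (4 higher and 2 lower, 2366 at an unadjusted p under 0.05). Without 3 bites replicate 1 the differences, given without an SE, were 0.37 for GPR143, 0.23 for TYR, 0.56 for PMEL and 0.28 for MLANA. They were 0.29 for TRPM1, 0.13 for TYRP1, -0.09 for DCT and -0.13 for MITF. TYR, MLANA and TYRP1 thus changed sign with that library, and DCT and MITF stayed below 0. In those 9 bitten libraries GPR143 averaged 6.57 ± 3.59 TPM, against 4.61 ± 1.98 TPM in the 3 naive ones (SD), and TYR averaged 21.7 ± 9.98 TPM, against 17.1 ± 4.36 TPM. Every gene's naive range lay inside or overlapped its bitten range.

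Among CK1 libraries, the melanosome sum averaged 93.9 ± 46.7 TPM in 6 bitten libraries and 92.5 ± 7.43 TPM in 2 naive ones (SD). Among EF19-5 libraries, it was 6.25, 190.2, 100.7 and 190.2 TPM in the 4 bitten libraries and 67.8 TPM in the 1 naive one. With 1 naive library in EF19-5, a difference between the experiments could not be judged.

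Against naive skin, first exposure skin had log2 differences of -0.61 ± 1.05 for TYR, -0.46 ± 1.02 for PMEL, -0.21 ± 0.90 for MLANA and -0.14 ± 0.70 for GPR143 (± SE, n = 3 first exposure libraries against the 2 naive CK1 libraries, with a residual spread shared by all groups). In that comparison 5 genes or 0.0334% were called (2044 at an unadjusted p under 0.05), none of them a pigment gene. Saliva immune skin against naive skin, which uses the same naive libraries, had 0.31 ± 1.05 for TYR, 0.41 ± 1.02 for PMEL, 0.49 ± 0.90 for MLANA and 0.36 ± 0.70 for GPR143. There 1 gene or 0.00668% was called (1742 unadjusted), again none of the pigment genes.

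Set directly against first exposure skin, saliva immune skin had the higher estimate for 7 of the 8 pigment genes, as for 54.4% of all genes tested. Each of the 7 was within its SE from the shared model. TYR averaged 24.1 ± 7.20 TPM in saliva immune skin and 12.3 ± 3.74 TPM in first exposure skin (SD, n = 3 each), a log2 difference of 0.92 ± 0.94 (SE). MLANA averaged 15.5 ± 3.85 TPM in saliva immune skin and 9.06 ± 1.23 TPM in first exposure skin, a log2 difference of 0.70 ± 0.81. Each difference was smaller than its SE from the shared model. That SE draws on the spread in all 5 groups. These include the 3 bites libraries, with TYR at 0 and 27.6 TPM and MLANA at 0 and 17.0 TPM. It therefore does not measure the spread within the groups compared here, and a difference below it does not show that they are alike. PMEL (0.87 ± 0.91) and GPR143 (0.50 ± 0.62) had overlapping libraries, and TYRP1 had -0.28 ± 1.28. Without saliva immune replicate 3, TYR was at 0.70, MLANA at 0.53, PMEL at 0.46, GPR143 at 0.30, TRPM1 at 0.09 (0.45 with it) and DCT at -0.09 (0.26 with it). No gene was called in this comparison by limma, 0.00% of 14979, with 351 at an unadjusted p under 0.05.

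Between the groups with 3 and with 2 bites, the differences turned on a single library. TYR had a log2 difference of -2.41 ± 1.15, MLANA -2.09 ± 0.99, PMEL -2.07 ± 1.12, GPR143 -2.02 ± 0.76 and TRPM1 -1.56 ± 0.79 (± SE, n = 2 each, with a residual spread shared by all groups). That SE does not measure the spread of these 2 groups alone, where TYR was at 0 and 27.6 TPM in the 3 bites libraries. Leaving out 3 bites replicate 1 keeps only 3 bites replicate 2 in that group. The differences were then 0.01 for TYR, 0.18 for PMEL, -0.67 for GPR143 and -0.05 for TRPM1, while TYRP1 was 1.83, against -1.07 ± 1.57 with both libraries. MITF, by contrast, was 0.24 ± 0.30 with both libraries and 0.43 without that one. No gene was called here by limma, 0.00% of 14979, with 1615 at an unadjusted p under 0.05.

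**Figure D5:**
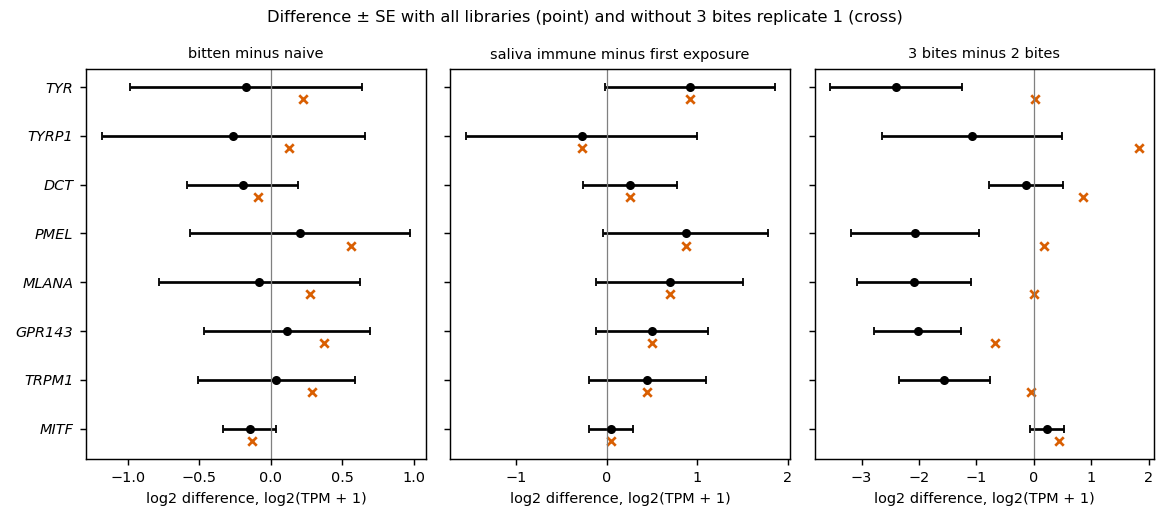
Log2 difference on the log2(TPM + 1) scale (x axes) of 8 pigment genes in 3 comparisons, with all libraries (black point, bar ± SE) and without 3 bites replicate 1 (orange cross). In 3 bites minus 2 bites, TYR is at -2.41 with all libraries and 0.01 without that library.

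The wider lists were drawn up with earlier results of these data known. None of the 29 transport genes and none of the 24 tested lineage genes was called by limma in any of the 5 comparisons. In bitten against naive skin, 23 of the transport genes had a higher and 6 a lower estimate (median log2 difference 0.16, against 0.10 over all genes tested, of which 64.6% had a higher estimate), with 6 at an unadjusted p under 0.05, a p reached by 15.8% of all genes. Naive replicate 2, the library with the most skeletal muscle transcripts, was lowest for 11 of the 29, and its part in these estimates was not tested. MYO5A, the motor that carries melanosomes along actin, had 0.66 ± 0.22 (SE, adjusted p = 0.195) in that comparison. BACE2, a protease that cleaves PMEL, had 0.54 ± 0.22 (adjusted p = 0.268). CAPN3, a calpain with both muscle and melanocyte forms, had -1.05 ± 0.37 (adjusted p = 0.216), and its highest level, 242.1 TPM, was in naive replicate 2. Of the lineage genes, 18 had a higher and 6 a lower estimate (median 0.23), with 2 at an unadjusted p under 0.05. These 2 went opposite ways. EDNRB, the endothelin receptor needed by melanoblasts, had 0.80 ± 0.27 (adjusted p = 0.203). ADAMTS20 had -0.76 ± 0.24 (adjusted p = 0.172). MYO5A at 16.0 TPM, BACE2 at 26.2 TPM and EDNRB at 10.6 TPM all had their lowest level in naive replicate 2. ADAMTS20, at 4.14 TPM, had its highest level there. The melanosome genes themselves had 2 higher and 4 lower estimates of 6, with a median of -0.13. This split rested on 3 bites replicate 1. Without that library TYR (0.23), MLANA (0.28) and TYRP1 (0.13) also had higher estimates, and DCT alone a lower one (-0.09). The 1 marker gene called was PVALB, the parvalbumin of fast muscle fibres, at -1.97 ± 0.29 (adjusted p = 0.0413) in bitten against naive skin.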

How the data were processed

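RNA from guinea pig skin was isolated with a Qiagen RNeasy kit and sequenced from Illumina libraries, per the labels' protocols. The authors deposited TPM values for 26855 genes (18254 with a symbol), with a column for each of the 13 libraries, and each column sums to 1e+06. The submitters' processing notes name DESeq, StringTie and Trimmomatic; their versions and roles, the aligner, the genome build and the annotation were not given in the sources used here. TPM holds no counts, so depth is unknown, no counting interval is given, and a value listed at 0 may be a low level or an estimate that failed. No 2 columns held identical values.

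The genes, the wider lists and the marker lists were chosen with earlier results of these data known, and matched by symbol without regard to case. Named from each wider list are every called gene and up to 6 with the highest mean TPM; other genes were singled out after their values were seen. The 14979 genes reaching 1 TPM in 2 or more libraries were fitted on log2(TPM + 1), which understates changes of low genes, with limma 3.58.1 in R 4.3.3, with an intensity trend in the empirical Bayes step, two-sided, Benjamini-Hochberg adjusted, called at 0.05. Bitten against naive used a bite and an experiment term; the other comparisons used 5 groups and the experiment. On simulated data with 200 genes changed, the fits were tested for sign and size. Alternatives were a pseudocount of 0.1, no filter, median-of-ratios scaling, no experiment term, array weights, TPM without muscle genes in the total, Spearman ranks, and leaving out each library. Added after the data were seen were the description of groups without 3 bites replicate 1, the share of all genes whose saliva immune and first exposure libraries do not overlap, and the search for genes at 0 in a single library.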

Additional observations from a re-analysis of the deposited data

Results flagged for a closer look

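Over the 10 bitten libraries, Dixon's gap ratio, the gap between an extreme library and its nearest neighbour divided by the whole range, was computed for 9 measures, and those above 0.466 are listed. The genes were chosen with these levels known and rest on the same libraries, so the ratios describe how far a library lies from the others and test nothing. For 6 of them the lowest library was 3 bites replicate 1: the ratio was 0.68 for MLANA and 0.618 for TYR, both listed at 0 TPM there, 0.521 for GPR143, also at 0 TPM, 0.56 for PMEL at 1.86 TPM, 0.478 for TRPM1 at 0.240 TPM, and 0.625 for the summed melanosome genes at 6.25 TPM. MITF was listed for another library, 2 bites replicate 1 at 16.8 TPM, with a ratio of 0.482. The hair follicle, Schwann cell and basal keratinocyte sums of 3 bites replicate 1 were within the range of the other libraries, and what sets this biopsy apart was not tested.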

How the results depend on the processing

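No paired analysis was possible because the labels number no replicates across groups. Counts of called genes moved with the settings, and the cause was not tested. For bitten against naive skin, 6 were called; a pseudocount of 0.1 gave 12, no experiment term 3 and array weights 92, and leaving out 1 library gave 1 to 31, with 31 without 3 bites replicate 1 and 1 without first exposure replicate 3 or naive replicate 2. For first exposure against naive skin (5), no filter gave 3, no experiment term 1 and leaving out 1 library 1 to 19. For saliva immune against naive skin (1), a pseudocount of 0.1 gave 5, no filter 2, median-of-ratios scaling 3, no experiment term 2, array weights 20 and leaving out 1 library 1 to 6. For saliva immune against first exposure skin (0), leaving out 1 library gave 0 to 1, and array weights, which did not converge in this model, gave 2174. For 3 bites against 2 bites skin (0), no filter gave 4 and leaving out 1 library 0 to 4. The highest over the lowest melanosome sum, 30.4, was 3.46 to 30.4 when 1 library was left out. In the order of libraries by that sum, 4 of 13 kept their place under median-of-ratios scaling and 6 with muscle genes out of the total. Of the 10 genes nearest to GPR143, 4 stayed by Spearman rho and 5 to 10 with 1 library left out; of those nearest to the sum, 3 and 4 to 10. PVALB kept its sign under all alternatives and lost its call under 10. The depth of the libraries is unknown, so a value at 0 sets no upper limit.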
